A study of Mus musculus with 4 samples.

Results

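Expression of 32 genes that make cholesterol and fatty acids, or control their synthesis, was followed across 4 mouse melanocyte lines, named 9v, 10d, 13d and 14d. Of these genes, 31 had a probe set that measured a single gene and 1, Acat2, was not analysed here. All 31 were detected, among 18193 genes measured and 9415 detected in at least 1 line. They were grouped by role into a mevalonate arm, a sterol arm, fatty acid synthesis, desaturases and elongases, SREBP control and the sterol carrier Stard4.

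The immortalized lines came from the skin of C57BL/6J pups aged 3 days and were hybridised to Affymetrix arrays, with 1 array per line. Each was grown to 80% confluency in F12 medium with serum and 200 nM of the phorbol ester TPA, and RNA integrity numbers lay between 9.7 and 9.9. Line 9v was wild-type (WT) and line 10d was bcat* according to both the sample labels and the article. The bcat* transgene encodes a stable, transcriptionally active form of β-catenin in the melanocyte lineage. For the other lines the sources are opposed: 13d is bcat* and 14d is WT in the labels, whereas 13d is WT and 14d is bcat* in the article. Lines 9v and 10d are labelled male and lines 13d and 14d female, while the article describes male mice. Lines are therefore described by name, and every statement on genotype is given under each reading. With 1 line per genotype in a pair, genotype and line cannot be told apart there.

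Values are intensities on a linear scale made by GCRMA, a method that corrects each probe for background by its sequence and normalises between arrays. Detection required an intensity of at least 32 in the brighter of the lines compared, and lower values were raised to 32 before a fold was formed. Between 35.8% and 36.1% of probe sets reached this level in each line. All 4 lines carried the melanocyte markers, 9 of 10 being detected with summed intensities of 265827 to 284451, and Ednrb was not detected. Of 8 fibroblast markers 2 were detected, with summed intensities of 91 to 270. Of 7 measured keratinocyte markers 2 were detected, and of 5 measured adipocyte and sebocyte markers none was. In such bulk samples, fewer cells of a type and less RNA per cell cannot be told apart.

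In mammalian cells, cholesterol is built from acetyl-CoA through mevalonate, isoprenoid diphosphates, squalene and lanosterol, while fatty acids are built from the same precursor through malonyl-CoA. Transcription of both routes is driven by the sterol regulatory element-binding proteins (SREBPs), which Scap escorts out of the endoplasmic reticulum when membrane sterol is low and which the Insig proteins retain when it is high. SREBPs bind sterol regulatory elements near the start of their targets, usually beside sites for NF-Y and Sp1. The SREBP encoded by Srebf2 acts mainly on sterol genes and the main product of Srebf1 mainly on fatty acid genes.

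The sequence just upstream of the annotated start was available for 25 members in a RefSeq table of assembly GRCm38.p6, and Fdps, Fdft1, Sqle, Scd1, Scd2, Fads1 and Stard4 had no entry. Shown are 250 bases, 5′ to 3′, for 4 members with large differences between lines (Hmgcs1, Idi1, Mvd and Nsdhl) and for Elovl6, whose order across lines differed from theirs. Capitals mark the SRE-like letters TCACNCCAC and the NF-Y letters CCAAT, on either strand, so that a match on the opposite strand reads ATTGG.
Hmgcs1, chr13:119690101-119690350, plus strand: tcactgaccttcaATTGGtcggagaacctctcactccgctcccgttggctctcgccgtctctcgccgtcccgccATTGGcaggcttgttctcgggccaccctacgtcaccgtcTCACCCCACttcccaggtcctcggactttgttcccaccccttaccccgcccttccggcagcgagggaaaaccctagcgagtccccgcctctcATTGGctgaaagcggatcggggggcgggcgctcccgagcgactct
Idi1, chr13:8885356-8885605, plus strand: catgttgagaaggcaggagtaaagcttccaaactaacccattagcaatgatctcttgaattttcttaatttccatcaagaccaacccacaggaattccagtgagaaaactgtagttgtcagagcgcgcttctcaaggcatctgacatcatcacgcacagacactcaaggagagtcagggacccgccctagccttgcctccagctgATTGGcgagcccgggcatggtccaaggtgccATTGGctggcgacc
Mvd, chr8:122443423-122443672, minus strand: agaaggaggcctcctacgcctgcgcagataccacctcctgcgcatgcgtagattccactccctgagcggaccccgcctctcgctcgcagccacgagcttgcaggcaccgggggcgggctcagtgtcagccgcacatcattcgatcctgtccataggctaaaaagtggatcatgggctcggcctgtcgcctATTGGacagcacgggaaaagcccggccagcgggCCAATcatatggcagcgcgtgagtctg
Nsdhl, chrX:72918271-72918520, plus strand: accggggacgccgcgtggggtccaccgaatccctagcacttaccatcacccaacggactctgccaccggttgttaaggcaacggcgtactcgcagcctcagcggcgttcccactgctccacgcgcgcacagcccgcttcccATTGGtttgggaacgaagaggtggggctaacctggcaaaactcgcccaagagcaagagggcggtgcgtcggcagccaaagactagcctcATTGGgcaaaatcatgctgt
Elovl6, chr3:129532136-129532385, plus strand: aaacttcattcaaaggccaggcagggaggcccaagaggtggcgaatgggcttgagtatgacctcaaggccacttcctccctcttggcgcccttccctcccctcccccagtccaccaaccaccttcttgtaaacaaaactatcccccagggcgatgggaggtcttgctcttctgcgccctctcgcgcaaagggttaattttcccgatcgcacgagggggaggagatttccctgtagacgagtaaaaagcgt
Hmgcs1 held 3 NF-Y matches and the SRE-like match, which lay 137 bases before the start. Idi1, Mvd and Nsdhl held 2 NF-Y matches each in these bases, and Elovl6 held no match to either motif.

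Over windows of these 250 bases and the following 50, CCAAT occurred in 20 of 25 members (80.0%), against 41.1% of 27025 genes with a window. A gene with several annotated starts had several windows and counted if any of them matched. By window, CCAAT occurred in 21 of 33 for members and in 37.41% of 32851 for all genes. The genes compared were not limited to detected ones. By role, CCAAT was present in 8 of 8 sterol arm members, 5 of 6 mevalonate arm members and 4 of 5 SREBP control members, but in only 1 of 3 desaturases and elongases. Fads2, which had the same order of lines as Hmgcs1, held no CCAAT. Pmvk, Ebp and Tm7sf2, which ranged less than 2-fold over the lines, each held it. Whether the motif goes with the order of lines was not tested. The Sp1 letters GGGCGG were found in 20 of 25 members and 38.2% of all genes, and the E-box CACGTG in 6 of 25 members and 8.1% of all genes. The SRE-like letters matched 1 member, Hmgcs1, and 1.4% of all genes. Both strands were searched, no match overlapped one of another motif, and a match is a description of letters rather than of binding.

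Between the lines whose genotype is undisputed, most of the sterol pathway was lower in 10d (bcat*) than in 9v (WT). Of 31 members, 14 were at least 2-fold lower in 10d, against 10.0% of the 9131 genes detected in these lines. Only 1 member, Scd1, was at least 2-fold higher, against 7.85% of all genes. The 14 comprised 4 of 6 mevalonate arm genes, 6 of 10 sterol arm genes, Fads2, Srebf2, Insig1 and Stard4. The median log2 difference of 10d minus 9v was -1.73 for the mevalonate arm and -1.37 for the sterol arm, compared with 0.0 over all detected genes. It was -0.63 for fatty acid synthesis, 0.34 for desaturases and elongases and -0.60 for SREBP control. With 1 array per line, these differences have no replicate check and no test was made.

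The other pair of lines, which shares no array with the first, differed in many of the same genes. Of 31 members, 16 were at least 2-fold higher in 13d than in 14d, against 11.0% of 9213 genes detected in these lines. None was at least 2-fold lower, against 8.73% of all genes. The median log2 difference of 13d minus 14d was 1.64 for the mevalonate arm, 1.21 for the sterol arm, 0.47 for fatty acid synthesis, 1.70 for desaturases and elongases and 0.26 for SREBP control, compared with -0.01 over all detected genes. A count made after the values were seen joined both pairs: 12 members were at least 2-fold lower in 10d than 9v and in 14d than 13d, against 1.27% of 8929 genes detected in both pairs. These were Hmgcs1, Mvd, Idi1, Fdft1, Lss, Cyp51, Nsdhl, Hsd17b7, Dhcr7, Fads2, Srebf2 and Stard4. By the probe set read for each gene, Fdft1 lay closest to the threshold, at 2.01-fold between 13d and 14d. Some dimmer probe sets did not pass in both pairs. Among them were those of Mvd, with 40, 5, 233 and 22 in 9v, 10d, 13d and 14d, and of Fads2, with 31, 5, 71 and 5. In both of these, 10d lay under the detection level, and for Fads2 so did 9v.

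**Figure D1:**
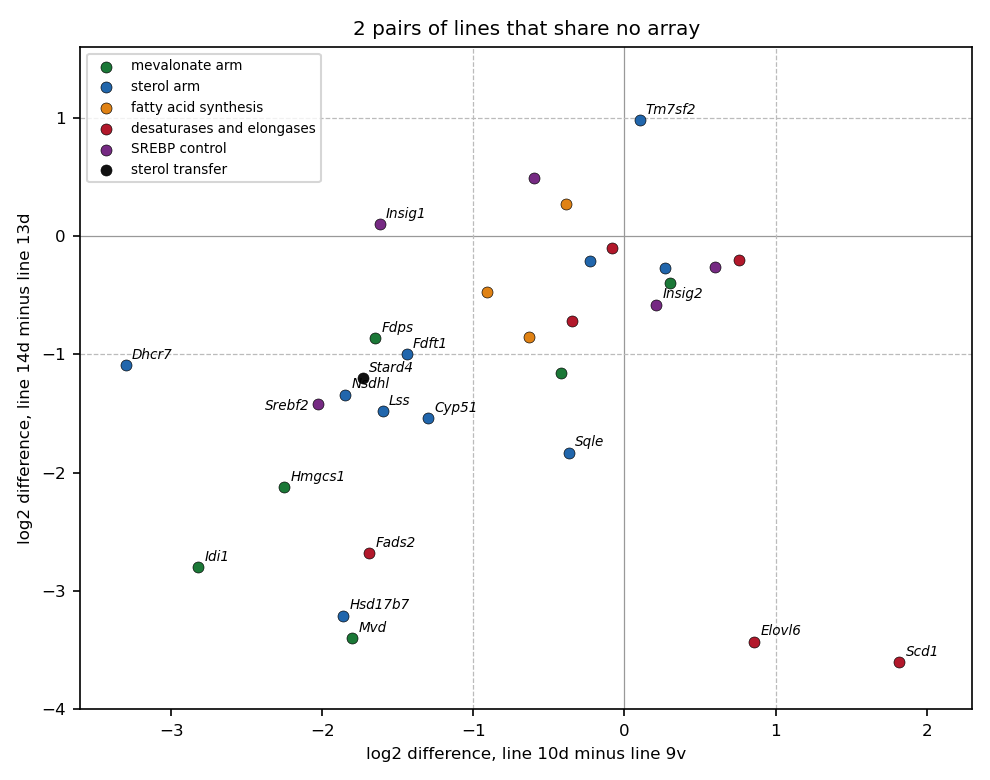
Log2 difference of line 14d minus 13d (vertical axis) against that of line 10d minus 9v (horizontal axis) for 31 genes, coloured by role, with dashed lines at a 2-fold difference and values raised to the detection level. The 12 genes beyond 2-fold in both pairs sit at the lower left, while Scd1 and Elovl6 sit at the lower right.

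Across all 4 lines, 22 of 31 members spanned at least 2-fold from the highest to the lowest line, against 40.1% of all genes. A common order was 13d highest and 10d lowest, which 17 of 31 members shared, against 6.89% of all genes, a count that was also made after the values were seen. In the mevalonate arm, the median deviation from each gene's mean was 0.32 in 9v, -1.37 in 10d, 1.14 in 13d and -0.56 in 14d on the log2 scale. The sterol arm had the same order of lines, with 0.26, -0.97, 1.03 and -0.21. For desaturases and elongases the median was -0.22 in 9v, 0.12 in 10d, 1.06 in 13d and -0.58 in 14d. The genes of this group were unlike each other, as 14d was lowest in 2 of 6 (Scd1 and Elovl6), 10d in 3 (Scd2, Elovl5 and Fads2) and 9v in 1 (Fads1).

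**Figure D2:**
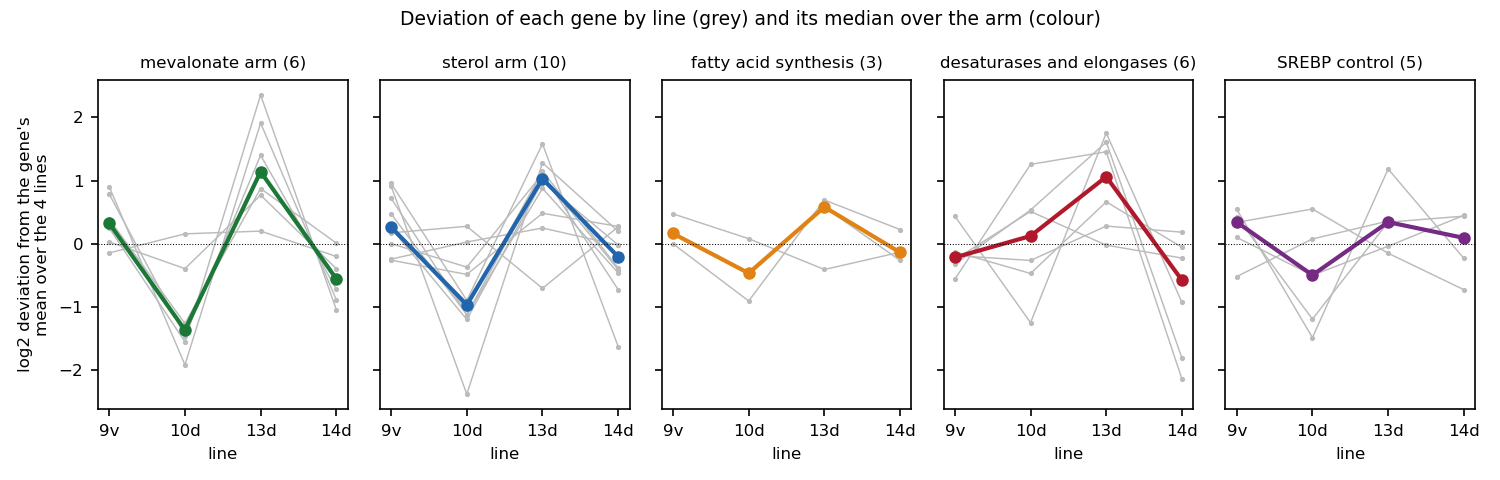
Log2 deviation of each gene from its mean over the 4 lines (grey lines, 1 per gene) and the median over each group of genes (coloured line), by line, with the number of genes in parentheses. The medians of the mevalonate and sterol arms were highest in 13d and lowest in 10d, whereas that of desaturases and elongases was lowest in 14d, the lowest line of 2 of its 6 genes.

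Hmgcs1, which condenses acetyl-CoA with acetoacetyl-CoA at the entry to the mevalonate arm, had intensities of 7247 in 9v, 1525 in 10d, 11108 in 13d and 2553 in 14d. It was 4.75-fold lower in 10d than 9v and 4.35-fold higher in 13d than 14d, so that 10d and 14d both lay below 9v and 13d. Mevalonate kinase (Mvk) had 216 in 9v, 161 in 10d, 361 in 13d and 161 in 14d and was 1.34-fold lower in 10d than 9v. A second probe set of Mvk differed more, with 250, 84, 454 and 120 in the same order of lines. Mvd, the decarboxylase that yields isopentenyl diphosphate, had 115 in 9v, 33 in 10d, 497 in 13d and 47 in 14d. Its 10d value was just above the detection level, and its 15.1-fold range over the lines was the widest among members.

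Idi1 isomerises isopentenyl diphosphate, and its intensities were 2450 in 9v, 346 in 10d, 4934 in 13d and 708 in 14d. The difference was 7.08-fold between 9v and 10d and 6.97-fold between 13d and 14d, of like size in pairs that share no array. Farnesyl diphosphate synthase (Fdps), the last step before the sterol branch, had 4483 in 9v, 1424 in 10d, 6276 in 13d and 3447 in 14d. Fdps was 3.15-fold lower in 10d than 9v, but only 1.82-fold higher in 13d than 14d. Phosphomevalonate kinase (Pmvk) was an exception in this arm, with a range of 1.32-fold from 408 to 539.

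Squalene synthase (Fdft1), which commits farnesyl diphosphate to sterols, had intensities of 3767 in 9v, 1384 in 10d, 6290 in 13d and 3136 in 14d. Squalene epoxidase (Sqle) had 2048, 1581, 4405 and 1235 in the same order. Sqle thus differed by 1.30-fold between 9v and 10d, but by 3.57-fold between 13d and 14d. Lanosterol synthase (Lss) had 526 in 9v, 174 in 10d, 796 in 13d and 285 in 14d, and Cyp51, which demethylates lanosterol, had 1853, 750, 3405 and 1173. In both genes 13d was highest and 10d lowest, and the lines of each pair differed by 2.47-fold to 3.02-fold.

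Nsdhl and Hsd17b7 act together in removing the methyl groups of lanosterol. Nsdhl had 2793 in 9v, 777 in 10d, 3115 in 13d and 1230 in 14d, so that 9v and 13d were close and 10d was 3.59-fold below 9v. Hsd17b7 had 691 in 9v, 191 in 10d, 1067 in 13d and 115 in 14d, and was the sterol arm gene with the largest difference between 13d and 14d, 9.28-fold. Dhcr7, the reductase of a final step to cholesterol, had 867 in 9v, 88 in 10d, 1118 in 13d and 527 in 14d. It was 9.85-fold lower in 10d than 9v, the largest such difference among members, and 2.12-fold higher in 13d than 14d.

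The remaining sterol arm genes, Tm7sf2, Ebp and Sc5d, spanned less than 2-fold by the probe set read for each gene. Tm7sf2, a sterol reductase, had 1045 in 9v, 1123 in 10d, 568 in 13d and 1117 in 14d, and was the only gene of this arm that was lowest in 13d. Ebp and Sc5d had ranges of 1.41-fold and 1.96-fold with 13d highest in each. A dimmer probe set of Sc5d, with 160 in 9v, 165 in 10d, 332 in 13d and 132 in 14d, spanned over 2-fold. Stard4, which carries cholesterol between membranes, had 849 in 9v, 256 in 10d, 2405 in 13d and 1048 in 14d, a range of 9.39-fold.

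**Figure D3:**
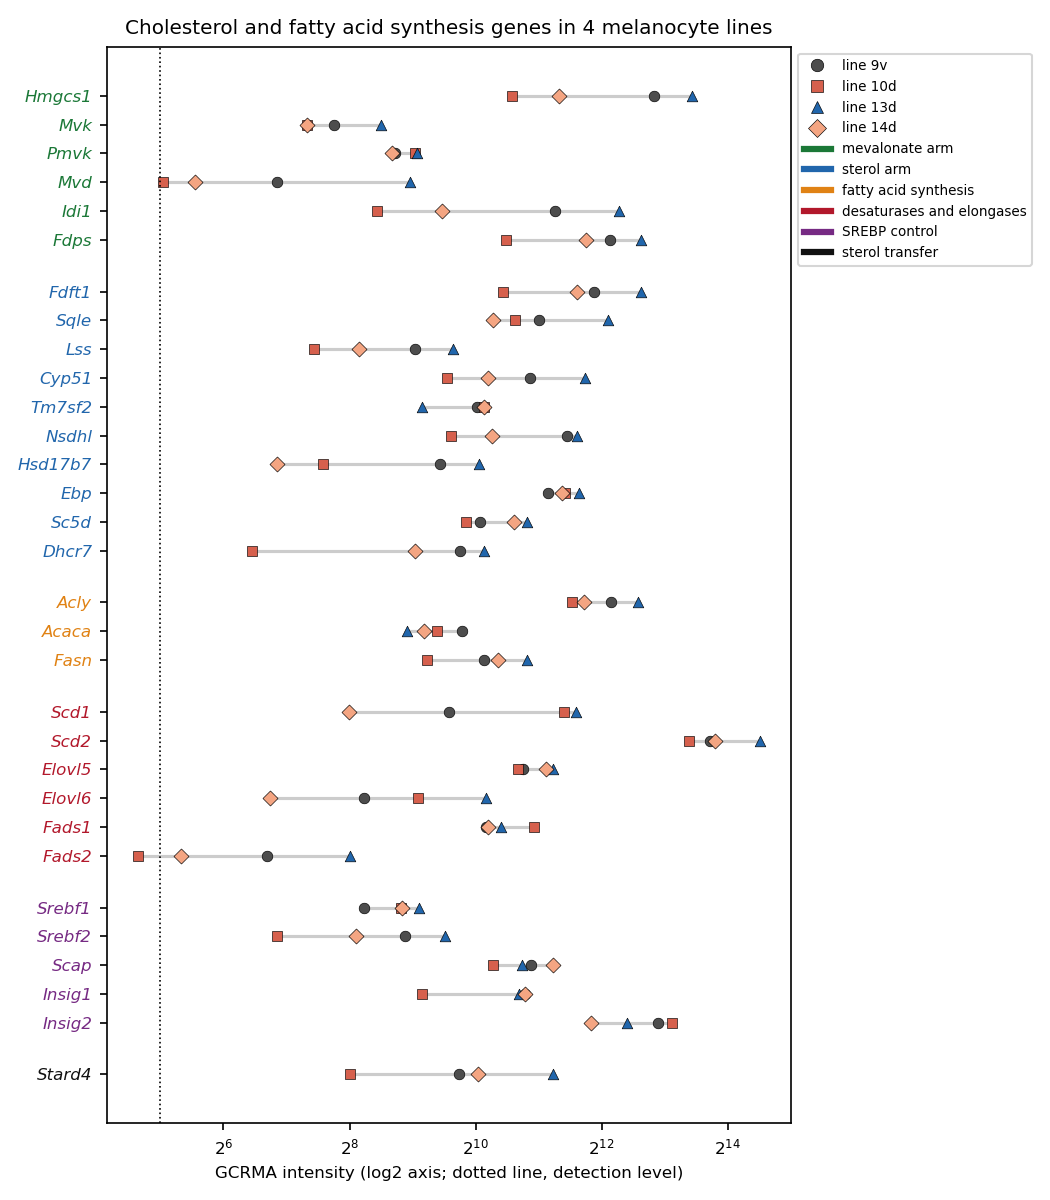
Intensity of each of 31 genes in lines 9v (grey circles), 10d (red squares), 13d (blue triangles) and 14d (orange diamonds) on a log2 axis, with 1 array per line and grey bars from the lowest to the highest line. Many mevalonate and sterol arm genes run from 10d through 14d and 9v to 13d, and Fads2 in 10d is the only value left of the dotted detection level.

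Genes of fatty acid synthesis differed less than sterol genes. By the probe set read for each gene, none reached 2-fold between 10d and 9v or between 13d and 14d. ATP citrate lyase (Acly), which supplies acetyl-CoA to both routes, had intensities of 4550 in 9v, 2942 in 10d, 6091 in 13d and 3384 in 14d. A dimmer probe set of Acly, with 1042, 577, 1663 and 669, was over 2-fold higher in 13d than 14d. Another, with 3099, 1921, 4124 and 2184, was not. Fatty acid synthase (Fasn) had 1119, 597, 1811 and 1309, and was 1.87-fold lower in 10d than 9v. Acetyl-CoA carboxylase (Acaca) had a range of 1.84-fold and was the only member of this group that was lowest in 13d, at 479, with 883 in 9v.

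Among desaturases and elongases, Scd1 and Elovl6 had a wide range and were not lowest in 10d. Scd1, the stearoyl-CoA desaturase that makes oleate, had 764 in 9v, 2698 in 10d, 3101 in 13d and 255 in 14d. It was thus 3.53-fold higher in 10d than 9v, opposite to the sterol arm, and 12.2-fold higher in 13d than 14d. Elovl6, which extends palmitate to stearate, had 301 in 9v, 545 in 10d, 1150 in 13d and 107 in 14d. The second detected probe set of each gene had the same order, with 71, 270, 355 and 18 for Scd1 and 171, 241, 591 and 76 for Elovl6. Both genes were higher in 10d and 13d than in 9v and 14d.

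The same held for Fads1, with 1152 in 9v, 1956 in 10d, 1350 in 13d and 1172 in 14d, but over a range of only 1.70-fold. Scd2, a paralog of Scd1, had 13538 in 9v, 10658 in 10d, 23421 in 13d and 14211 in 14d, and differed by 1.27-fold between 9v and 10d. Fads2, the entry desaturase of polyunsaturated fatty acid synthesis, had 103 in 9v, 25 in 10d, 257 in 13d and 40 in 14d. As 10d lay under the detection level, Fads2 was at least 3.22-fold lower there than in 9v. Elovl5 had a range of 1.46-fold.

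The regulators themselves differed unequally. Srebf2, which encodes the SREBP of sterol genes, had intensities of 471 in 9v, 115 in 10d, 734 in 13d and 275 in 14d. From high to low, the order of lines was 13d, 9v, 14d and 10d. A second detected probe set of Srebf2 had 334, 136, 596 and 368 in 9v, 10d, 13d and 14d. There 14d lay above 9v, and 13d and 14d were less than 2-fold apart. By that probe set, Srebf2 would not be among the 12 genes beyond 2-fold in both pairs. Srebf1 had 299, 452, 550 and 458, with 9v lowest and a range of 1.84-fold. Scap, the escort of SREBPs, had 1888 in 9v, 1245 in 10d, 1714 in 13d and 2406 in 14d. Insig1, a retention factor and itself a target of SREBPs, had 1755, 571, 1657 and 1770. It was 3.07-fold lower in 10d than 9v, but the other 3 lines lay close together, so that Insig1 did not share the difference between 13d and 14d. Insig2 had 7631 in 9v, 8846 in 10d, 5438 in 13d and 3643 in 14d. The proteases that release SREBPs varied by less than 2-fold, with 1959, 2186, 3107 and 2268 for Mbtps1 and 1172, 975, 1008 and 1899 for Mbtps2.

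Detected probe sets of the same member mostly lay on the same side in 10d relative to 9v. Measured members had 72 probe sets, of which 57 were detected in at least 1 line. Of these, 43 were lower in 10d than 9v and 53 were lower in 14d than 13d. These counts take a decrease of any size. No share over all detected probe sets stands beside them, so they cannot be read as particular to the members. In 16 of 18 members with more than 1 detected probe set, all lay on the same side in 10d relative to 9v. The exceptions were Sc5d and Hmgcs1. For Hmgcs1, the dimmest of 5 detected probe sets had an intensity of 9 in 9v, 10d and 14d and 133 in 13d, while the other 4 were lower in 10d. Probe sets of a gene share the array and the RNA and are not replicates.

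**Figure D4:**
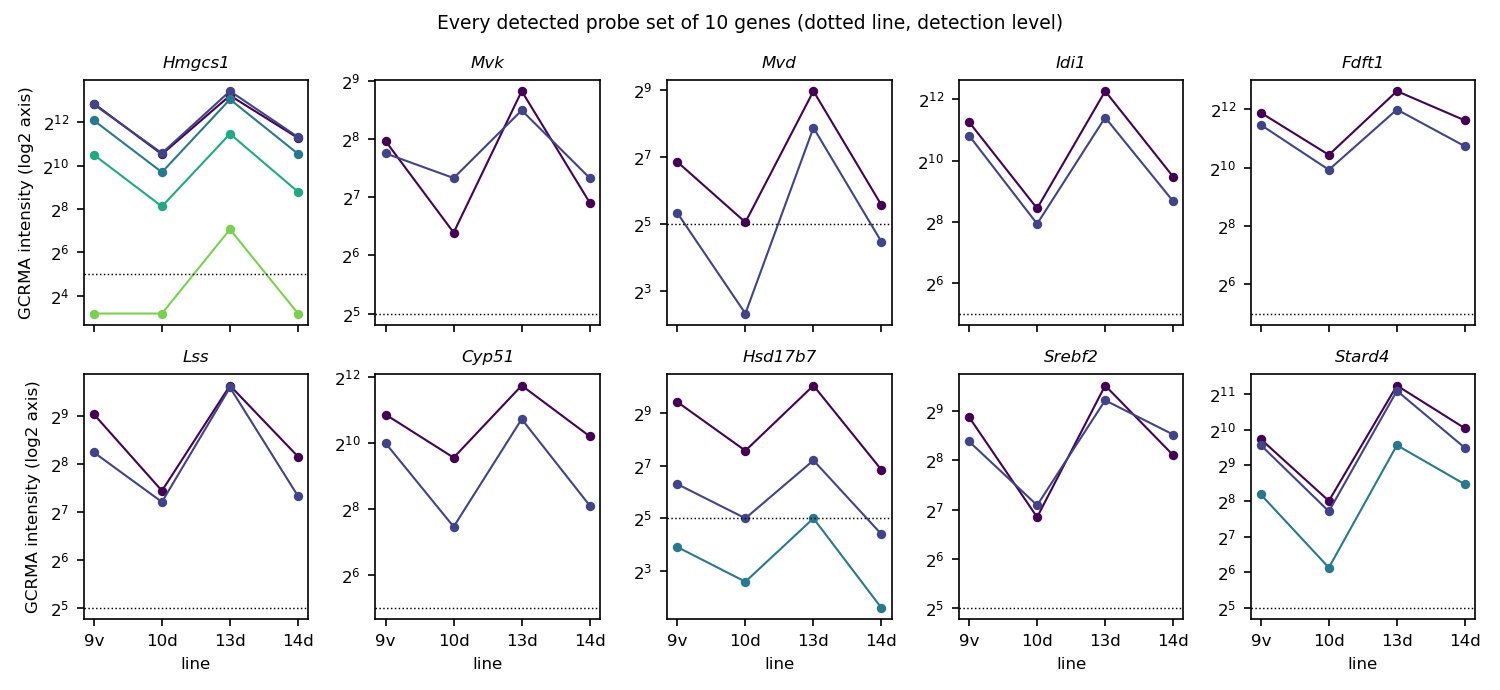
Intensity of every detected probe set (1 line each) of 10 genes in lines 9v, 10d, 13d and 14d, on log2 axes that differ between panels, with the detection level dotted. In each gene, 13d was highest in every probe set, and the 4 brighter probe sets of Hmgcs1 were lowest in 10d.

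Counts by genotype depend on the reading of 13d and 14d. Under the labels, both bcat* lines (10d and 13d) lay above both WT lines in 5 of 31 members (Pmvk, Ebp, Scd1, Elovl6 and Fads1), against 19.1% of all genes. They lay below in 2 members, Scap and Insig1, against 20.1%. Under the article, both bcat* lines (10d and 14d) lay below both WT lines in 15 members, against 14.5% of all genes. These were 5 mevalonate arm genes, 7 sterol arm genes, Acly, Fads2 and Srebf2. The second probe set of Srebf2 did not share this, as 14d lay above 9v there. They lay above in 1 member, Tm7sf2, against 16.5%.

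With 2 lines against 2, limma (adjusted over 9415 genes) called no member and no other gene at an adjusted p under 0.05, which is 0.0% of genes under the labels and 0.0% under the article. The smallest adjusted p over all genes was 0.0863 under the labels and 0.4787 under the article. At an unadjusted p under 0.05, limma passed 2 members under the labels, Scd1 and Elovl6, against 7.85% of all genes. Scd1 was higher in bcat* lines by 2.71 ± 0.60 (SE) on the log2 scale, with an adjusted p of 0.4966 by limma. For Elovl6 the difference was 2.14 ± 0.68 (SE), with an adjusted p of 0.605 by limma. Under the article, 10 members passed at an unadjusted p under 0.05 by limma, against 3.74% of all genes, and all 10 were lower in bcat* lines. They were Hmgcs1, Mvd, Idi1, Lss, Cyp51, Nsdhl, Hsd17b7, Acly, Fads2 and Srebf2. Hmgcs1 differed by -2.18 ± 0.39 (SE) and Idi1 by -2.81 ± 0.56 (SE), each with an adjusted p of 0.9701 by limma. Without 13d this count was 2, and without 10d it was 4.

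By labelled sex, both female lines (13d and 14d) lay above both male lines in 6 members, against 13.3% of all genes. These were Sc5d, Fasn, Scd2, Elovl5, Srebf1 and Stard4. They lay below in Acaca and Insig2, 2 of 31 members, against 13.4%. Each pair compared above lies within 1 labelled sex.

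Most cell cycle genes also had 13d highest and 10d lowest, and their part in the sterol values was not tested. Of 16 detected cell cycle genes, 12 had 13d highest and 10d lowest, against 17 of 31 members and 6.89% of all genes. Their summed intensity was 85195 in 9v, 57817 in 10d, 120537 in 13d and 80060 in 14d. The median log2 difference of 10d minus 9v was -0.64 for cell cycle genes, -1.37 for the sterol arm and -0.63 over all members. For 14d minus 13d it was -0.77 for cell cycle genes. Taken as 13d minus 14d, it was 1.21 for the sterol arm and 1.0 over all members. Between 10d and 9v, 3 of the 16 (Mcm2, Aurkb and Ccnb2, the last picked after its values were seen) were at least 2-fold lower and none was higher. Mcm2, a subunit of the replicative helicase, had 2658 in 9v, 837 in 10d, 2770 in 13d and 1608 in 14d. Type I interferon genes also differed: 7 of 9 detected genes were at least 2-fold higher in 10d than in 9v, against 7.85% of all genes. Their median log2 difference of 2.54 is a lower bound. Several of them, such as Usp18 with an intensity of 4, lay under the detection level in 9v. Rtp4 was higher in 13d, at 575, than in 10d, at 533. The summed intensity of interferon genes was 1785 in 9v, 6159 in 10d, 3268 in 13d and 3119 in 14d. Their part in the sterol values was likewise not tested.

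Other genes of lipid synthesis gave a mixed picture. Of 26 detected, 4 were at least 2-fold lower in 10d than 9v and none was higher, and the median log2 difference was -0.13. The 4 were Msmo1, Elovl7, Agpat2 and Slc25a1, the last picked after its values were seen. Msmo1, the methylsterol oxidase that acts beside Nsdhl, had 6016 in 9v, 1773 in 10d, 11369 in 13d and 5357 in 14d, again with 13d highest and 10d lowest. Acss2, which activates acetate, had 68, 85, 154 and 15. By contrast, Agpat2, an acyltransferase of phospholipid and triglyceride synthesis, was highest in 14d, with 532 in 9v, 193 in 10d, 307 in 13d and 1595 in 14d. The elongase gene Elovl7 was highest in 9v, at 1403, with 333 in 10d, 265 in 13d and 378 in 14d.

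Genes of sterol efflux, uptake and storage, several of them targets of the oxysterol receptors LXR, differed in either direction. In 10d relative to 9v, 3 of 13 detected (Abca1, Mylip and Vldlr) were higher by 2-fold or more and 3 (Scarb1, Osbpl5 and Lrp8) were lower, with a median log2 difference of 0.08. Abca1, the cholesterol exporter, had 811 in 9v, 3095 in 10d, 2570 in 13d and 534 in 14d, so that 10d and 13d lay above 9v and 14d, as for Scd1. Mylip, a ubiquitin ligase for lipoprotein receptors, had 1807, 3978, 2606 and 947. Not all genes of this list shared that order. Abcg1 had 53, 43, 58 and 93, and Lpcat3 had 1491, 980, 1381 and 1132, each with 10d lowest. Scarb1, the receptor for high-density lipoprotein, had 604 in 9v, 26 in 10d, 601 in 13d and 590 in 14d. It was at least 18.9-fold lower in 10d than 9v, and its 3 probe sets were lowest in 10d. Vldlr, a receptor for triglyceride-rich lipoproteins, had 45 in 9v, 965 in 10d, 158 in 13d and 142 in 14d. Mylip, Lrp8, Abcg1 and Lpcat3 were picked after their values were seen.

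**Figure D5:**
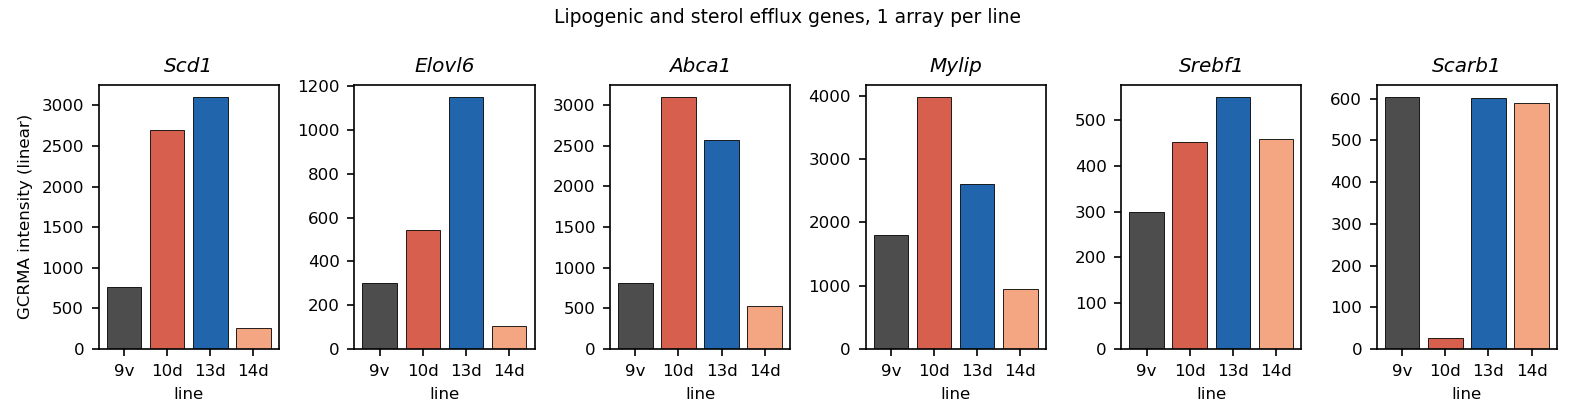
Intensity of 6 genes in lines 9v, 10d, 13d and 14d on linear axes that start at 0, with 1 array per line and no error. Scd1, Elovl6, Abca1 and Mylip were higher in 10d and 13d than in 9v and 14d, Srebf1 was lowest in 9v, and Scarb1 was low in 10d alone.

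Genes of oxysterol and bile acid synthesis and of fatty acid oxidation showed little that was shared with the sterol arm. Ch25h, a cholesterol hydroxylase, had an intensity of 4 in each line, and of 6 genes of its list 2 were detected, Cyp39a1 and Hsd3b7, with ranges under 2-fold. Of 14 detected genes of fatty acid oxidation, 2 were at least 2-fold lower in 10d than 9v (Cpt1c and Acads, the latter picked after its values were seen) and none was higher, with a median log2 difference of -0.06. Cpt1c, a member of the carnitine palmitoyltransferase family, had 590 in 9v, 73 in 10d, 114 in 13d and 721 in 14d. The mitochondrial transferase gene Cpt1a had 1197, 731, 646 and 283.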

How the data were processed

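RNA of 4 melanocyte lines was measured with 1 array per line. The authors deposited an intensity for each probe set, in whole numbers from 2 to 84904 on a linear scale, so that ratios of dim probe sets are coarse. The submitters' processing notes name GCRMA. Its version was not given in the sources used here, nor was any further step. A platform annotation listed 1 gene for 34945 of 45037 probe sets, several for 932 and none for 9160. An Entrez gene was found in a RefSeq table of GRCm38.p6 for 34741 of the 34945.

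Log2 was taken, and each gene was read from whichever of its probe sets had the highest mean log2. The median log2 over all probe sets was 2.81 in 10d and 3.00 in each other line. Detection was set at an intensity of 32, a log2 of 5. Pairs of lines were compared by fold, with no test. Genotype was tested by limma (lmFit, and eBayes with a trend), 2 lines against 2 under each reading, with Benjamini-Hochberg adjustment over all genes detected in at least 1 line. These p-values measure only the spread between the lines, and the number of arrays limits precision.

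The members, lists and comparisons were chosen with earlier results of these data known. Values in every line are given for members with a range of at least 2-fold and for SREBP control. From each other list up to 4 detected genes with the largest range were eligible, of which some are not given in the text, and Mbtps1, Mbtps2 and Ch25h were named whatever their range. As alternatives, a gene was the mean of its probe sets, probe sets with suffixes of possible cross-hybridization were left out, and values were median-centred or normalised by quantiles or cyclic loess. Detection levels of 16 and 64, thresholds of 1.5-fold and 3-fold, fits without filter or trend, labelled sex as a block and the omission of each line were also run. Values that shifted by more than 1.5-fold counted as moved. The fit was also run on simulated data with genotype by the labels. It recovered 100 of 100 changes of 1 on the log2 scale, with 12 false calls over 8892 genes. That result does not give the power of the fit in these lines. Python 3.11.15, NumPy 2.4.6, pandas 2.3.3, matplotlib 3.10.9, R 4.3.3 and limma 3.58.1 were used.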

Additional observations from a re-analysis of the deposited data

Results flagged for a closer look

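Of 31 members, 12 were at least 2-fold lower in 10d than 9v and at least 2-fold higher in 13d than 14d. With the genotypes of the labels, bcat* minus WT was thus negative in the male lines and positive in the female lines for these 12 genes, whereas with those of the article it was negative in each. The difference between the pairs was not tested, and 1 array per line gives no replicate of it.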

How the results depend on the processing

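Of 134 counts and medians recomputed under alternatives, 128 stayed within the limits set for them. The 134 include the limma counts of called members, which were 0 in every setting. Among 214 values of single members 1 changed sign, that of Elovl5, from -0.08 to 0.12 on the log2 scale with median centring. With the mean log2 of all probe sets, 9 rather than 14 members were at least 2-fold lower in 10d than 9v, and the median log2 difference was -1.04 for the mevalonate arm and -0.56 for the sterol arm. That mean includes probe sets that were not detected. Members at least 2-fold higher in 10d numbered 2 with median centring, which shifted 10d by 0.144 and the other lines by -0.048 on the log2 scale, and 4 at a threshold of 1.5-fold. At 3-fold, 5 rather than 12 members were lower in both pairs. At 2-fold, this count was 8 with the mean log2 of all probe sets and 10 at a detection level of 64. Both of these were within the limit set. Values of 7 members (Mvk, Mvd, Fdps, Fdft1, Lss, Hsd17b7 and Fads2) moved by over 1.5-fold in at least 1 alternative. Mvd had -1.80 by its brighter probe set and -0.32 by the dimmer one, whose 10d value was under the detection level, so that the latter is bounded by that level. Pmvk and Srebf1 had no value without probe sets of possible cross-hybridization.

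By limma, 0 members were called in every alternative, and 0 to 0 when each line was left out in turn, where the lone line of a genotype is assumed to vary like the other pair. Over all genes, the calls under the labels were 8 with the mean of all probe sets, 4 with median centring and 232 without the filter, and under the article 49 without the filter. At an unadjusted p under 0.05, leaving out a line gave 1 to 5 members under the labels and 2 to 10 under the article. With labelled sex as a block, added for the article after the data were seen, it was 2 under the labels and 13 under the article. That fit joins 9v with 10d and 13d with 14d. No paired analysis by replicate number was possible because the labels give none.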
